A study of Mus musculus with 12 samples.

Results

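The genes described here encode sugar, carboxylate, phosphate, urate and ascorbate transporters of the solute carrier families SLC5, SLC13, SLC16, SLC17, SLC20 and SLC23, measured by RNA sequencing in whole mouse kidney. They were chosen by name alone, as every protein-coding gene whose symbol begins with 1 of those 6 family names and a member number. That gave 46 of the 22032 protein-coding genes and of the 43346 genes listed: 13 of SLC5, 5 of SLC13, 14 of SLC16, 9 of SLC17, 2 of SLC20 and 3 of SLC23. The 12 libraries fall into 2 groups, 6 kidneys taken 1 day after a sham procedure and 6 taken 1 day after HP-AKI, an acute kidney injury model whose letters the labels do not spell out. In this field the abbreviation usually stands for injury by heme proteins. Strain, sex, age, the injuring agent and its dose are not given in the labels used here, and nothing in them says whether the libraries of a group come from separate animals. The p-values therefore rest on the variation from library to library, which could be technical.

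Most of these carriers sit in the membranes of tubule cells and move small nutrients and anions across them. In the proximal tubule, the first stretch of the nephron, sodium-coupled carriers of the SLC5, SLC13 and SLC23 families draw filtered glucose, lactate, citrate, sulfate and vitamin C out of the forming urine. Carriers of the SLC16 family pass monocarboxylates such as lactate, pyruvate and ketone bodies, and some pass amino acids or creatine instead. The SLC17 family holds kidney anion transporters that handle phosphate and urate, a lysosomal carrier of sialic acid, and the vesicular carriers that load glutamate or ATP. The pair of SLC20 proteins are sodium-phosphate cotransporters found in nearly all cells.

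Promoter sequence was available for 33 of the 46 members, in 41 windows that run from 250 bases before to 50 bases after each start. The windows are those of RefSeq on GRCm38.p6. The E-box CACGTG, which reads the same on both strands and contains ACGTG, stood in 6 of the 41 member windows (14.6%) and in 7.15% of all 32851 windows. The first 150 bases of 5 of these windows are shown because the same 6 letters, in capitals, precede members that rose and members that fell in HP-AKI. Slc20a1 (chr2:129198523-129198672, plus strand) and Slc16a1 (chr3:104638414-104638563, plus strand) rose, whereas Slc13a3 (chr2:165473298-165473447, minus strand), Slc16a12 (chr19:34747429-34747578, minus strand) and Slc5a1 (chr5:33103969-33104118, plus strand) fell.
Slc20a1: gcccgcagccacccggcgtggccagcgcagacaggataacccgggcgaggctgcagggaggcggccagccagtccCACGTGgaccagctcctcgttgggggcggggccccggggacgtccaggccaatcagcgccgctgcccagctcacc
Slc16a1: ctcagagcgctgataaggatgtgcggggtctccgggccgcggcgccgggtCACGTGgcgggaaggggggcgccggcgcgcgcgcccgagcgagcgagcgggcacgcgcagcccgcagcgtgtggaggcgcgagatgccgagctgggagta
Slc13a3: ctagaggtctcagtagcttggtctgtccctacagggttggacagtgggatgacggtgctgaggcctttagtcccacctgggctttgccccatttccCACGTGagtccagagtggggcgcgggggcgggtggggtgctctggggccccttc
Slc16a12: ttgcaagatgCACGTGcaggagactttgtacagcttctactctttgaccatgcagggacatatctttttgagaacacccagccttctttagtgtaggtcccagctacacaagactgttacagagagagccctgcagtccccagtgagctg
Slc5a1: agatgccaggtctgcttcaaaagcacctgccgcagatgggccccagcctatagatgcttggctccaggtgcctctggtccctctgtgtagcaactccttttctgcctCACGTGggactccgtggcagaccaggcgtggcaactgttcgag

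By the direction of their gene, 2 of 10 windows of members that rose and 3 of 20 windows of members that fell held the E-box. The remaining window with it belongs to Slc17a2, which did not pass the test. Other motifs, searched on both strands, were the HNF1 half-site GTTAAT in 9.76% of member windows against 7.1% of all windows, and the HNF4 core CAAAGT in 7.32% against 14.4%. The antioxidant response element core TGACNNNGC stood in 12.2% of member windows against 12.4% of all. The hypoxia response element core ACGTG, which every E-box also counts towards, stood in 24.4% against 19.6%. In the order given, these other motifs stood in 0, 1, 3 and 4 of the 10 windows of members that rose. In the 20 windows of members that fell the counts were 2, 2, 2 and 4. These counts are small, and the difference by direction was not tested. A match is only a run of letters, and nothing was measured here on the binding of any factor.

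Levels are given in CPM, the counts of a library scaled to a common total with TMM factors, which correct for differences in composition between libraries. A gene was called changed when its adjusted p was below 0.05 in edgeR's quasi-likelihood test with Benjamini-Hochberg adjustment over all 17470 genes tested. Total counts per library ran from 35201197 to 41951129 in sham and from 31624522 to 40630917 in HP-AKI. Principal components separated the groups on the first axis (81.3% of the variance), and on the second, with 7.85%, sham 1, sham 2 and HP-AKI 8 lay lowest. All 12 proximal tubule markers fell, with a summed level of 60846 to 85922 CPM in sham and 25828 to 34016 CPM in HP-AKI. Kap held 61.4% of that sum in sham and 78.2% in HP-AKI, and the other 11 markers summed to 25643 to 28158 CPM and 5493 to 8060 CPM.

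Of the 46 transporter genes, 40 had enough reads to be tested. Of these 27 were lower in HP-AKI (67.5%), where 35.2% of all tested genes were lower, and 10 were higher (25%), where 37.7% of all tested genes were higher. Among the 10, Slc5a5 and Slc16a3 entered the test only through their HP-AKI libraries. In 33 of the 40 (82.5%) no HP-AKI library overlapped the sham range, against 52.4% of all tested genes. The median log2 fold change of the 40 was -1.60 (range -3.66 to 2.87), and that of all tested genes was 0.04. At least a 2-fold fall was called in 24 of the 40 (60%), against 17.1% of all tested genes. At least an 8-fold fall was called in 2 of the 40 (5%), Slc16a9 and Slc13a3, against 1.42% of all tested genes. Reads of the 46 genes made up 0.697% ± 0.0282 of a sham library and 0.302% ± 0.0161 of an HP-AKI library (SD, n = 6 each), with ranges of 0.666% to 0.741% and 0.286% to 0.324% that did not overlap. In whole kidney, fewer cells of a type and less RNA per cell cannot be told apart, and the part of the fall in proximal tubule markers in these results was not tested.

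**Figure D1:**
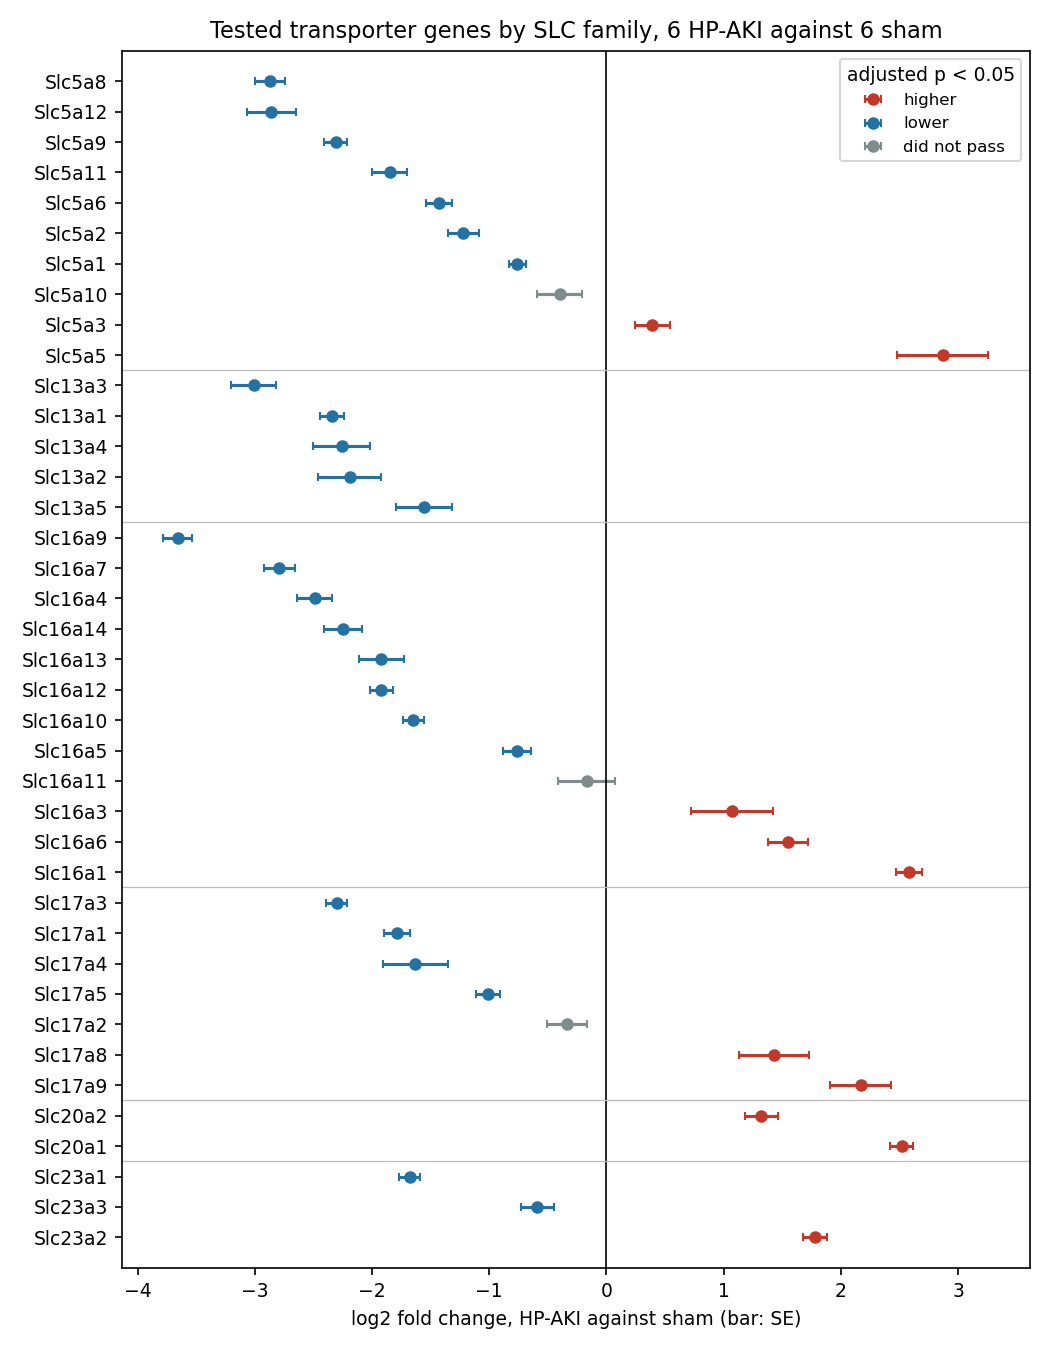
Log2 fold change of HP-AKI against sham (horizontal axis) with its standard error (bar) for 39 of the tested transporter genes, grouped by family; blue marks 26 lower genes, red the 10 higher genes and grey the 3 that did not pass. All 5 SLC13 genes lie left of zero and both SLC20 genes right of it.

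Among the sodium-glucose cotransporters, 3 of the 4 tested members fell and none rose. Slc5a2 encodes SGLT2, the bulk glucose carrier of the early proximal tubule (ENSMUSG00000030781, chr7:128265657-128272430 on GRCm38, plus strand). Its level in sham was lowest at 356, median 452 and highest at 476 CPM, and in HP-AKI lowest at 129, median 176 and highest at 232 CPM, so the groups did not overlap. The fall was 2.32-fold (log2 fold change -1.22, SE 0.13, adjusted p = 8.24e-07). In sham, sham 1 and sham 2 were the lowest libraries, at 373 and 356 CPM. Of the Slc5a2 exon bases, 20.6% are shared with the opposite-strand gene BC017158, which measured 20.5 CPM in sham and 16.2 CPM in HP-AKI.

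Slc5a1 encodes SGLT1, the high-affinity glucose carrier of the late proximal tubule and the gut. It measured 106, 111 and 120 CPM (lowest, median, highest) in sham and 59.2, 65.4 and 76.3 CPM in HP-AKI. No library overlapped, and the fall of 1.69-fold was smaller than that of Slc5a2 (log2 fold change -0.76, SE 0.07, adjusted p = 1.56e-07). Slc5a9, which encodes SGLT4, a carrier of mannose and glucose, measured 60.6, 66 and 73 CPM in sham and 11, 12.7 and 17.1 CPM in HP-AKI. It fell 4.97-fold (log2 fold change -2.31, SE 0.10, adjusted p = 3.40e-11), without overlap. Slc5a10, which encodes SGLT5, a fructose and mannose carrier of the kidney, ranged from 70.2 to 120 CPM in sham and from 40.3 to 98 CPM in HP-AKI. These ranges overlapped and the difference did not pass (log2 fold change -0.40, SE 0.19, adjusted p = 0.0751). It passed without sham 2 (-0.49), HP-AKI 12 (-0.52) or HP-AKI 13 (-0.52). Slc5a10 shares 16.6% of its exon bases with Fam83g on the opposite strand, which measured 7.53 CPM in sham and 33.8 CPM in HP-AKI.

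The inositol cotransporters moved in opposite directions. Slc5a3 encodes SMIT1, which carries the osmolyte myo-inositol, and was 261, 337 and 398 CPM in sham (lowest, median, highest) and 291, 425 and 580 CPM in HP-AKI. The groups overlapped, and the rise of 1.31-fold was called (log2 fold change 0.39, SE 0.15, adjusted p = 0.0279). The call was lost when any of sham 3, sham 4, sham 5, HP-AKI 8 or HP-AKI 9 was left out, with log2 fold changes of 0.34, 0.36, 0.32, 0.28 and 0.34. Slc5a11 encodes SMIT2, its relative in the proximal tubule and gut, and was 36.9, 52.9 and 59.8 CPM in sham and 11.2, 13.4 and 19.5 CPM in HP-AKI. It fell 3.6-fold without overlap (log2 fold change -1.85, SE 0.15, adjusted p = 3.27e-08). Slc5a3 shares 1.5% of its exon bases with Mrps6 on the same strand, which measured 69.9 CPM in sham and 104 CPM in HP-AKI. The part of Mrps6 reads in the Slc5a3 values was not tested.

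Both sodium-monocarboxylate cotransporters, which recover filtered lactate, fell. Slc5a12 (SMCT2, the low-affinity form; chr2:110597298-110647779, plus strand) measured 487, 715 and 985 CPM in sham and 78.1, 91.1 and 175 CPM in HP-AKI. Its fall was 7.24-fold (log2 fold change -2.86, SE 0.21, adjusted p = 1.08e-08), and HP-AKI 8, the highest of its group at 175 CPM, stayed below every sham library. Slc5a8 (SMCT1, the high-affinity form; chr10:88885992-88929505, plus strand) measured 314, 340 and 457 CPM in sham and 43.6, 48.3 and 62.6 CPM in HP-AKI. Its fall was 7.3-fold (log2 fold change -2.87, SE 0.13, adjusted p = 4.71e-11), again without overlap.

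The remaining SLC5 genes carry iodide, vitamins and choline. Slc5a6 (SMVT, for biotin and pantothenate) measured 24.8, 30.9 and 40.7 CPM in sham and 10.2, 11.7 and 12.6 CPM in HP-AKI, a fall of 2.7-fold (log2 fold change -1.43, SE 0.11, adjusted p = 2.28e-08). It shares 9.9% of its exon bases with Atraid on the opposite strand, which measured 110 CPM in sham and 55.4 CPM in HP-AKI. The part of Atraid reads in the Slc5a6 values was not tested. Slc5a5 encodes NIS, the iodide carrier of the thyroid, and was scarce in kidney. It had 14 counts over the 6 sham libraries, with a lowest, median and highest level of 0, 0.0608 and 0.122 CPM, and 108 counts in HP-AKI, at a level of 0.379, 0.474 and 0.643 CPM. The rise passed the test without overlap (log2 fold change 2.87, SE 0.39, adjusted p = 8.03e-06). No sham library had more than 5 counts, so Slc5a5 entered the test only through its HP-AKI libraries. Its log2 fold change was the highest among the 40 tested members, but that place rests on these few sham counts.

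All 5 SLC13 genes, the sodium-coupled carriers of dicarboxylates, citrate and sulfate, fell without overlap. Slc13a3 encodes NaDC3, the basolateral carrier that takes up succinate and other dicarboxylates from blood (ENSMUSG00000018459, chr2:165405028-165473230, minus strand). It measured 315, 414 and 475 CPM in sham (lowest, median, highest) and 33.9, 49 and 75.3 CPM in HP-AKI. The fall was 8.07-fold (log2 fold change -3.01, SE 0.19, adjusted p = 1.30e-09). Slc13a1 encodes NaS1, the apical sulfate carrier, and measured 433, 469 and 598 CPM in sham and 87, 99 and 104 CPM in HP-AKI. The fall was 5.06-fold (log2 fold change -2.34, SE 0.10, adjusted p = 1.83e-11). Slc13a2 encodes NaDC1, the apical citrate carrier, and measured 24.6, 52.5 and 66.9 CPM in sham and 6.67, 9.56 and 16.6 CPM in HP-AKI, a fall of 4.57-fold (log2 fold change -2.19, SE 0.27, adjusted p = 2.74e-06). Of its exon bases, 26.2% are shared with the antisense gene Slc13a2os, whose level was 0.376 CPM in sham and 0.0917 CPM in HP-AKI. The scarcer pair were Slc13a4, which went from 7.02 ± 0.787 to 1.46 ± 0.634 CPM, and Slc13a5, the citrate carrier best known from liver, which went from 1.51 ± 0.339 to 0.509 ± 0.179 CPM (SD, n = 6 each).

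Among the lactate and ketone carriers of SLC16, 3 of the 4 tested members rose and 1 fell. Slc16a1 encodes MCT1, the widespread lactate and pyruvate carrier (ENSMUSG00000032902, chr3:104638668-104658462, plus strand), and is 1 of the genes with the E-box shown above. It measured 26.8, 30.5 and 40.4 CPM in sham and 164, 196 and 214 CPM in HP-AKI. The groups were far apart, with a rise of 5.98-fold (log2 fold change 2.58, SE 0.11, adjusted p = 2.00e-11). Slc16a7 encodes MCT2, the higher-affinity lactate carrier (chr10:125226464-125328963, minus strand), and went the other way, from 146, 172 and 225 CPM in sham to 22.4, 24.7 and 33.5 CPM in HP-AKI. The fall was 6.92-fold (log2 fold change -2.79, SE 0.13, adjusted p = 8.59e-11). Per kilobase of gene length, Slc16a7 was above Slc16a1 in every sham library and below it in every HP-AKI library.

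Slc16a6 (MCT7, a ketone body carrier) measured 11.8, 13.3 and 23 CPM in sham and 36.1, 39.7 and 62.8 CPM in HP-AKI, a rise of 2.92-fold without overlap (log2 fold change 1.55, SE 0.17, adjusted p = 1.00e-06). It shares 21.5% of its exon bases with Amz2 on the opposite strand, which measured 77.1 CPM in sham and 55.2 CPM in HP-AKI. Slc16a3 encodes MCT4, the lactate exporter of glycolytic cells, and stayed scarce in both groups. It measured 0.152, 0.283 and 0.724 CPM in sham and 0.507, 0.802 and 1.19 CPM in HP-AKI, with overlap. The rise of 2.16-fold was called (log2 fold change 1.07, SE 0.35, adjusted p = 0.0129), and it did not pass without sham 1, sham 2 and HP-AKI 8 together (log2 fold change 0.73). Sham libraries held 5 to 27 counts of Slc16a3 and HP-AKI libraries 22 to 42. Too few sham libraries reached the read filter, so Slc16a3 entered the test only through its HP-AKI libraries.

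The SLC16 genes Slc16a9, Slc16a12 and Slc16a10, for carnitine, creatine and amino acids, fell without overlap. Of these, Slc16a9, which encodes MCT9, a carnitine and creatine carrier (ENSMUSG00000037762, chr10:70245100-70285968, plus strand), had the largest fall among the 40 tested members. It measured 259, 297 and 342 CPM in sham and 20.2, 21.8 and 30.1 CPM in HP-AKI. The fall was 12.6-fold (log2 fold change -3.66, SE 0.12, adjusted p = 2.39e-12). Slc16a12, a creatine carrier, measured 245, 270 and 336 CPM in sham and 61.7, 74.7 and 86.1 CPM in HP-AKI (3.78-fold lower; log2 fold change -1.92, SE 0.10, adjusted p = 2.62e-10). Slc16a10 (TAT1, for aromatic amino acids) went from 74 ± 6.89 to 23.5 ± 2.72 CPM (SD, n = 6 each), a fall of 3.15-fold.

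Of the less studied SLC16 members, 4 of 5 fell. Slc16a4 (MCT5) measured 173, 192 and 262 CPM in sham and 28.8, 34.1 and 52 CPM in HP-AKI, a fall of 5.61-fold (log2 fold change -2.49, SE 0.15, adjusted p = 9.44e-10). Slc16a14, Slc16a13 and Slc16a5 fell with log2 fold changes of -2.25, -1.92 and -0.76. Slc16a13 and Slc16a11 lie side by side on chromosome 11, at chr11:70216789-70221064 and chr11:70212752-70216417 on opposite strands. Slc16a13 fell from 49.7 ± 4.17 to 13.2 ± 5.48 CPM, while Slc16a11 measured 2.98 ± 0.787 and 2.67 ± 0.989 CPM (SD, n = 6 each) and did not pass (log2 fold change -0.17, adjusted p = 0.538).

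The phosphate and urate genes of SLC17 form a run of neighbours on chromosome 13, and 3 of the 4 fell. Slc17a1 encodes NPT1, an anion carrier first described for phosphate and also known for urate (ENSMUSG00000021335, chr13:23867750-23895730, plus strand). It was the most abundant member in sham, at 917, 1075 and 1401 CPM, and measured 286, 306 and 384 CPM in HP-AKI. The fall was 3.47-fold (log2 fold change -1.79, SE 0.11, adjusted p = 1.16e-09). Slc17a3 encodes NPT4, a urate and drug anion carrier (chr13:23839434-23860714, plus strand), and measured 868, 921 and 1207 CPM in sham and 177, 194 and 214 CPM in HP-AKI. The fall was 4.94-fold (log2 fold change -2.30, SE 0.09, adjusted p = 1.60e-11). Slc17a4 (chr13:23897738-23915007, minus strand) was far scarcer, at 4.64 to 9.47 CPM in sham and 1.44 to 4.83 CPM in HP-AKI. It fell with overlap of the groups (log2 fold change -1.63, SE 0.28, adjusted p = 8.14e-05), and HP-AKI 12 was the library inside the sham range. Slc17a2 (chr13:23806993-23825180, plus strand) was near 1 CPM in both groups and did not pass (log2 fold change -0.34, adjusted p = 0.0912). Without HP-AKI 11 it passed (log2 fold change -0.43).

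Among the lysosomal and vesicular SLC17 genes 2 rose and 1 fell. Slc17a5 encodes sialin, which exports sialic acid from lysosomes, and measured 79.9, 87.2 and 93 CPM in sham and 38.4, 40.8 and 56.2 CPM in HP-AKI. It fell 2.02-fold without overlap (log2 fold change -1.01, SE 0.10, adjusted p = 1.56e-07). Slc17a9 encodes VNUT, which loads ATP into vesicles, and measured 0.518, 0.782 and 0.971 CPM in sham and 2.16, 3.02 and 6.17 CPM in HP-AKI. It rose 4.54-fold without overlap (log2 fold change 2.17, SE 0.26, adjusted p = 2.35e-06). Slc17a8 (VGLUT3, for glutamate) went from 0.803 ± 0.308 to 2.17 ± 0.922 CPM (SD, n = 6 each) with overlap (log2 fold change 1.43, adjusted p = 6.15e-04). The summed level of the neuron markers was 1.43 to 1.83 CPM in sham and 0.907 to 1.71 CPM in HP-AKI. Stmn2, the 1 tested neuron marker, fell, and it made up 65.2% of that sum in sham and 49.9% in HP-AKI. The untested neuron markers were split. Total reads of Syt1 dropped from 83 to 7, while those of Tubb3 (6 to 60), Rbfox3 (29 to 55), Elavl4 (3 to 7) and Snap25 (1 to 6) increased. The part of neurons in the rises of Slc17a8 and Slc17a9 was not tested.

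Both SLC20 phosphate cotransporters rose, against the direction of most members. Slc20a1 encodes PiT1 (ENSMUSG00000027397, chr2:129198764-129211616, plus strand) and measured 57.9, 64.3 and 65.9 CPM in sham and 308, 353 and 447 CPM in HP-AKI. The rise was 5.74-fold (log2 fold change 2.52, SE 0.10, adjusted p = 8.44e-12). Slc20a2 encodes PiT2 (chr8:22476700-22569607, plus strand) and measured 21, 31.1 and 32.6 CPM in sham and 51.4, 70 and 83.2 CPM in HP-AKI. It rose 2.49-fold (log2 fold change 1.32, SE 0.14, adjusted p = 4.24e-07), and neither gene's groups overlapped. Their summed level was 86.8 to 98.3 CPM in sham and 376 to 530 CPM in HP-AKI.

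The ascorbate carriers split by gene. Slc23a1 encodes SVCT1, the epithelial vitamin C carrier that recovers it from the filtrate, and measured 279, 298 and 315 CPM in sham and 81.1, 90.7 and 111 CPM in HP-AKI. The fall was 3.19-fold (log2 fold change -1.68, SE 0.09, adjusted p = 2.48e-10). Slc23a2 encodes SVCT2, the form found in most other cells, and measured 34.5, 38.4 and 40.6 CPM in sham and 112, 124 and 158 CPM in HP-AKI. The rise was 3.44-fold (log2 fold change 1.78, SE 0.10, adjusted p = 2.82e-10). The highest Slc23a1 value in HP-AKI stayed far below the lowest in sham. Slc23a3, an orphan relative, went from 7.67 ± 1.54 to 5.09 ± 0.726 CPM (SD, n = 6 each) without overlap (log2 fold change -0.59, adjusted p = 0.0016).

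**Figure D2:**
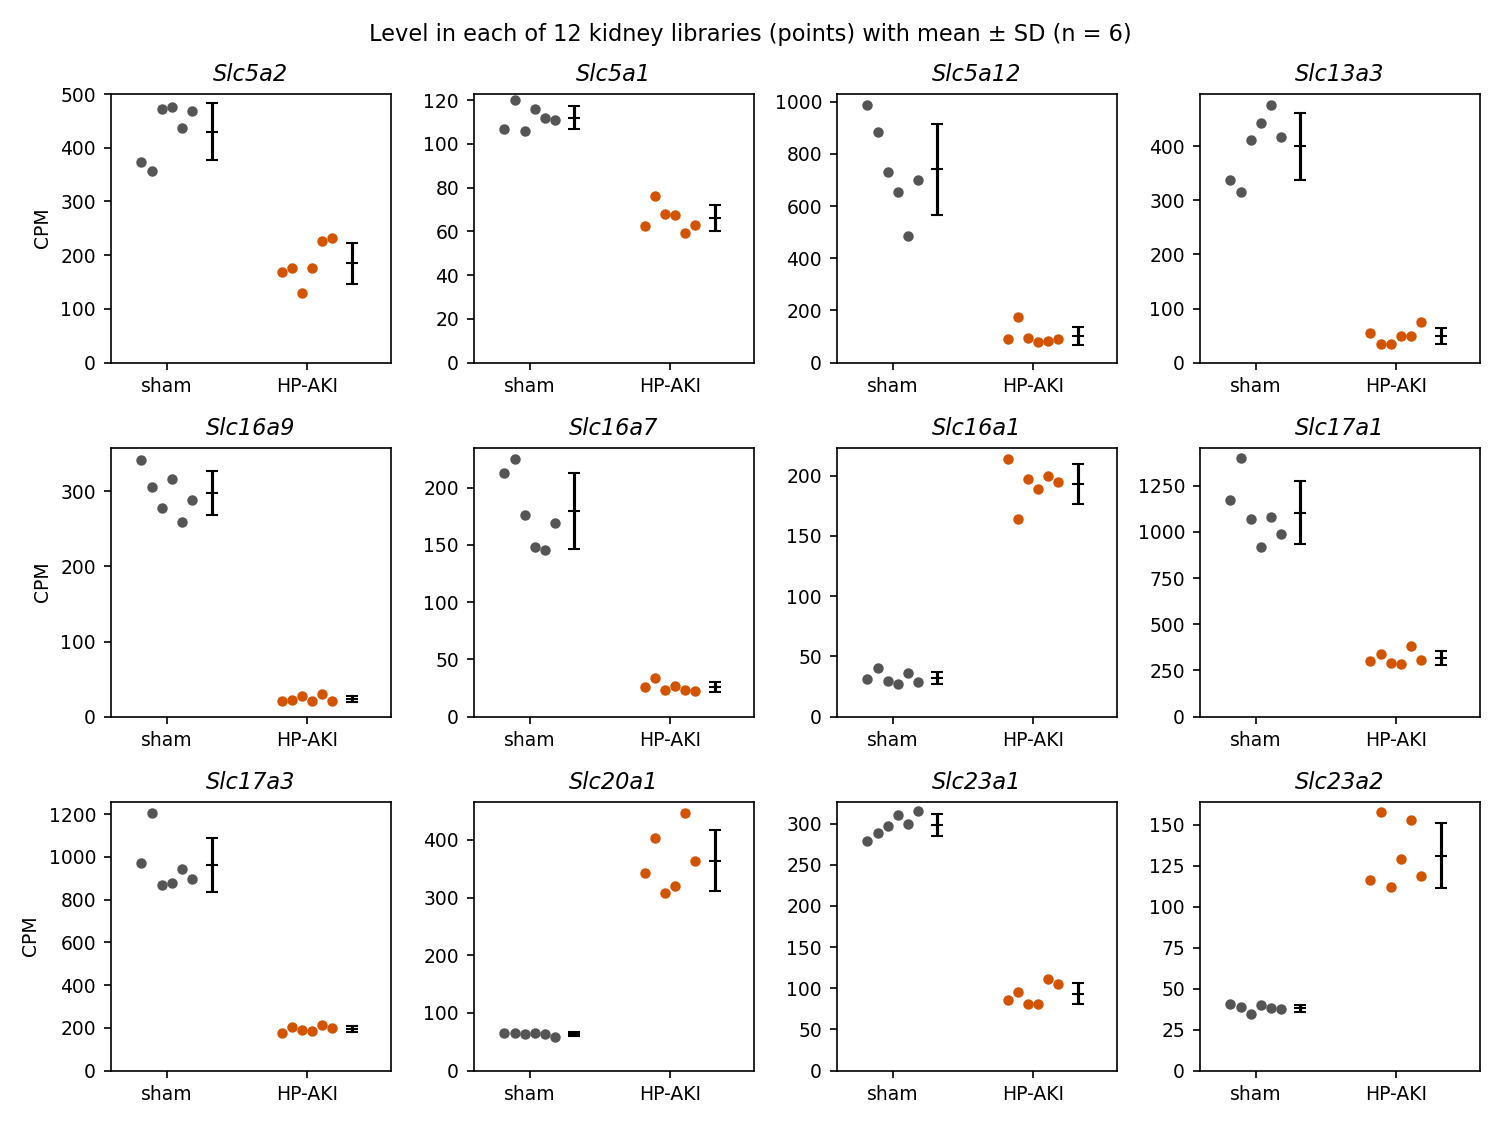
CPM in each library for 12 transporter genes (points; sham grey, HP-AKI orange) with the group mean and SD (n = 6) beside them; every vertical axis starts at 0. Slc16a1, Slc20a1 and Slc23a2 are the panels in which all HP-AKI points lie above all sham points, and in the other 9 panels all HP-AKI points lie below.

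Within a library, the ratio of related carriers does not depend on how libraries are scaled. For 6 such pairs the log2 ratio of counts per kilobase was compared between the groups with an exact two-sided permutation test over all assignments of the libraries to groups, for which 0.00216 is the smallest p possible, and adjusted over the 6 pairs. Slc23a1 was 19.2 times Slc23a2 per kilobase in sham and 1.75 times in HP-AKI, a change of 3.45 in the log2 ratio of Slc23a2 to Slc23a1 (exact p = 0.00216, adjusted p = 0.00433). Slc23a1 fell and Slc23a2 rose, each without overlap, so this p followed from their own values and adds no separate result. Slc20a1 was 1.48 times Slc20a2 in sham and 3.38 times in HP-AKI, a change of 1.19 (exact p = 0.00216, adjusted p = 0.00433). The ratios themselves, but not their change, depend on the gene lengths used. Slc13a3 was 3.96 times Slc13a2 in sham and 2.19 times in HP-AKI, so the log2 ratio of Slc13a2 to Slc13a3 was 0.85 higher (exact p = 0.00216, adjusted p = 0.00433). In these 3 pairs the groups did not overlap. The other comparisons were smaller or more variable.

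Slc16a1 was 115 times Slc16a3 per kilobase in sham and 290 times in HP-AKI, a change of -1.34 in the log2 ratio of Slc16a3 to Slc16a1 with overlap (exact p = 0.0108, adjusted p = 0.0162). Slc5a2 was 5.42 times Slc5a1 in sham and 3.9 times in HP-AKI. That change of 0.47 in the log2 ratio of Slc5a1 to Slc5a2 passed with overlap (exact p = 0.026, adjusted p = 0.0312), and lost its call when any of sham 3, 4, 5 or 6 or HP-AKI 7, 8, 9 or 11 was left out. The log2 ratio of Slc5a8 to Slc5a12 was -1.38 ± 0.22 in sham and -1.36 ± 0.40 in HP-AKI (SD, n = 6 each), a difference of 0.02 that did not pass (exact p = 0.937).

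**Figure D3:**
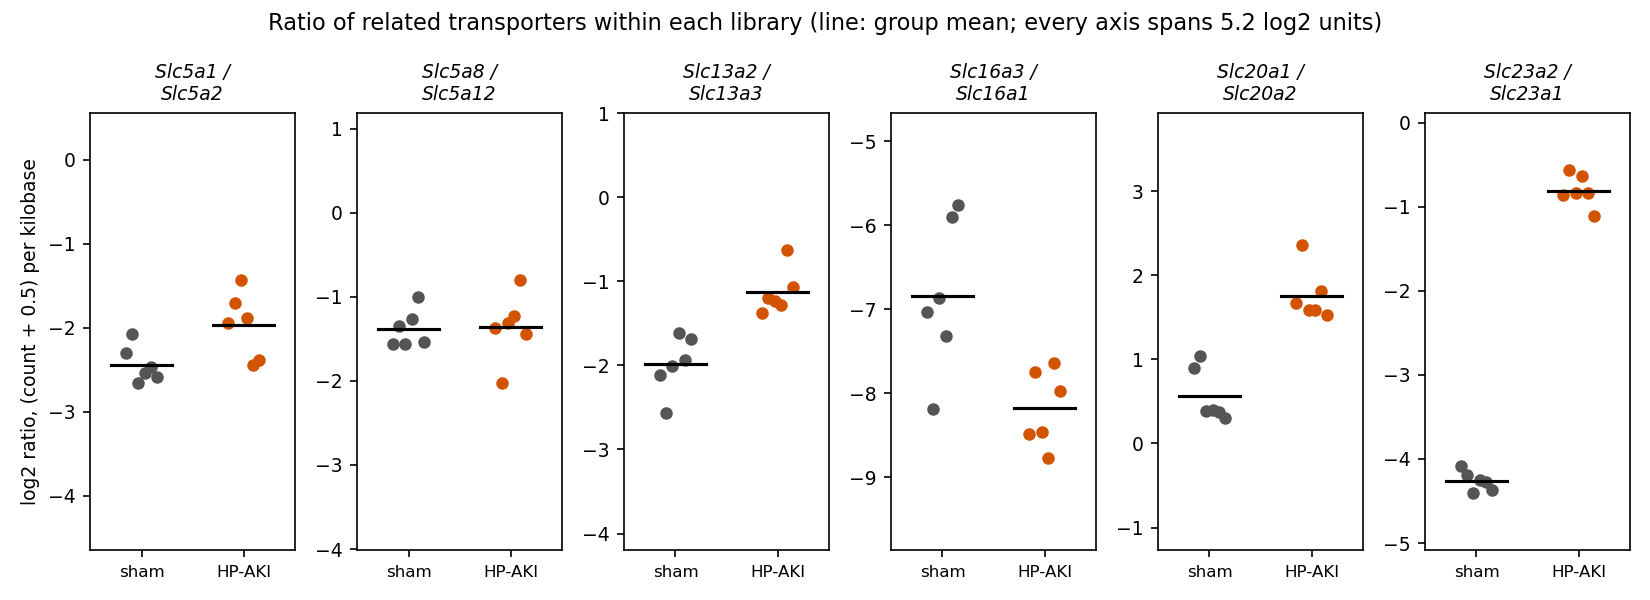
Log2 ratio of related transporters per kilobase within each library (points) with the group mean (line), sham grey and HP-AKI orange; every axis spans the same number of log2 units. The Slc23a2 to Slc23a1 ratio moved most, by 3.45, and the Slc5a8 to Slc5a12 ratio moved by 0.02.

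The order of the members by level per kilobase changed between the groups. In sham, Slc17a1 led at 466 ± 71.3 CPM per kilobase, above Slc17a3 at 220 ± 29.1, without overlap. Slc5a12 at 182 ± 43.2 and Slc5a2 at 148 ± 18.2 CPM per kilobase followed, and from Slc17a3 to Slc5a2 each overlapped its neighbour. Slc23a1 came next at 92.1 ± 4.05 CPM per kilobase (SD, n = 6 each). In HP-AKI, Slc17a1 still led, at 134 ± 15.5 CPM per kilobase, without overlap with the next. Slc20a1 came second at 65.3 ± 9.47 and then Slc5a2 at 63.9 ± 13.4 CPM per kilobase, with overlap. They were followed by Slc17a3 at 44.6 ± 2.99 and Slc16a1 at 43.7 ± 3.72 CPM per kilobase, which also overlapped. Of the 15 members above 100 CPM in sham, 14 fell, and Slc5a3 is the exception. A cut on the sham level favours members that fell. It leaves out Slc20a1, Slc16a1 and Slc23a2, which rose to means of 364, 193 and 131 CPM in HP-AKI. The matching share of all tested genes was not counted.

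**Figure D4:**
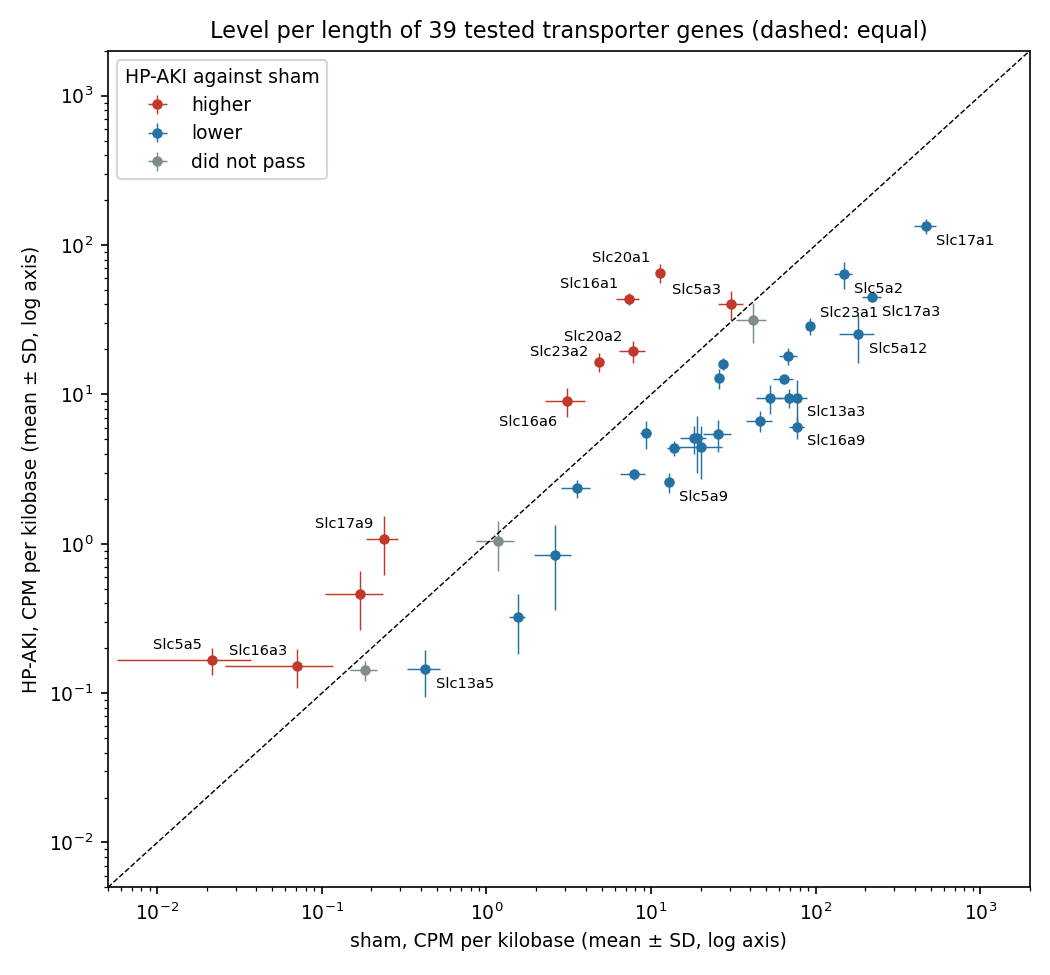
Mean level per kilobase in sham (horizontal, log axis) and HP-AKI (vertical, log axis) of 39 tested transporter genes, with SD bars (n = 6 each) and a dashed line of equal level. Slc17a1 is highest in both groups, at 466 and 134 CPM per kilobase. The 10 higher genes lie above the line, among them Slc20a1, Slc16a1, Slc20a2 and Slc23a2.

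The spread within a group followed a pattern across the members. Sham 1 and sham 2 were the lowest sham libraries for 11 of the 40 tested members, among them Slc5a2, Slc13a2, Slc13a3 and Slc23a1, and the highest for 8, among them Slc17a1, Slc17a3, Slc5a8 and Slc5a12. The longest GENCODE transcripts of the 11 had a median GC content of 55.5% (range 48.5% to 62.3%), and those of the 8 had a median of 41.4% (range 37.7% to 44.7%). HP-AKI 8 was the highest HP-AKI library for 4 of those 8 members and the lowest for 3 of those 11. This tally was chosen after the values were seen, and the part of GC content in these levels was not tested. Without these 3 libraries every called member except Slc16a3 was still called in the same direction, and Slc5a10 was also called, as lower (log2 fold change -0.49).

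Genes that work beside these carriers were counted from lists drawn up by function. The counts stand against 37.7% of all tested genes that were higher and 35.2% that were lower. Of 11 genes of the SLC2 family, which holds the facilitative hexose transporters and relatives that carry urate or inositol, 6 fell and 3 rose. Slc2a2 (GLUT2), the basolateral exit for glucose in the proximal tubule, went from 278 ± 20.8 to 28.9 ± 2.43 CPM (log2 fold change -3.26, adjusted p = 2.28e-13). Slc2a1 (GLUT1), the carrier of most other cells, went from 21.2 ± 5.19 to 115 ± 17 CPM (log2 fold change 2.44, adjusted p = 2.72e-09; SD, n = 6 each). Of 12 other phosphate, urate and sulfate transport genes 10 fell and 2 rose. Slc34a1, the main phosphate carrier of the proximal tubule, went from 3377 ± 797 to 1097 ± 343 CPM (log2 fold change -1.62, adjusted p = 4.89e-06). Slc22a12 (URAT1), which reabsorbs urate, went from 838 ± 213 to 258 ± 78.4 CPM (log2 fold change -1.70, adjusted p = 4.24e-06).

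Of 7 scaffold and accessory genes 5 fell and none rose by the test. Pdzk1, whose PDZ domains bind several of these carriers at the brush border, went from 1272 ± 169 to 151 ± 33.2 CPM (log2 fold change -3.08, adjusted p = 8.36e-11). Bsg, the partner that brings MCT1 to the membrane, went from 197 ± 26 to 134 ± 20 CPM while Slc16a1 rose (log2 fold change -0.56, adjusted p = 0.000315; SD, n = 6 each). Of 13 genes of lactate and pyruvate metabolism, 11 fell and 2 rose, Pdk4 and Pkm. Of 5 osmolyte genes 1 rose and 1 fell. All 4 hepatocyte nuclear factor genes of the proximal tubule fell, with a median log2 fold change of -1.54. The median log2 fold changes of the hexose, phosphate and urate, scaffold, lactate and osmolyte lists were -0.68, -1.53, -0.72, -0.75 and 0.16, against 0.04 for all tested genes. Among all tested genes, 37.7% were higher and 35.2% lower.

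Markers of other cells moved as well, and their part in the results for the transporters was not tested. Of all tested genes 37.7% were higher and 35.2% lower, so counts of short lists near these shares say little about a cell type. Of 8 loop of Henle and distal convoluted tubule markers 5 fell and 1 rose, and of 8 collecting duct markers 5 fell. Of 7 endothelial markers 3 rose and 1 fell, and of 5 podocyte markers 4 rose and 1 fell. Of 8 macrophage and monocyte markers 5 fell and 1 rose, with a summed level of 113 to 156 CPM in sham and 86.1 to 115 CPM in HP-AKI. All 5 tested neutrophil markers rose, from a summed 1.94 to 3.66 CPM in sham to 19 to 157 CPM in HP-AKI, with HP-AKI 8 highest. Of 4 lymphocyte markers 3 fell, and none of 5 red blood cell markers passed. Of 5 fat markers 3 rose, Fabp4, Lep and Cidec. The summed level of the 5 was 74.5 to 122 CPM in sham and 155 to 381 CPM in HP-AKI, but Fabp4, which endothelial cells also express, held 95.1% and 97.1% of it. Adipoq, a defining fat marker, measured 2.06 ± 1.54 and 0.967 ± 0.993 CPM and Plin1 0.835 ± 0.717 and 0.802 ± 1.01 CPM (SD, n = 6 each), and neither passed. The 1 tested adrenal marker, Star, rose, and it held 94.9% of a list total of 1.38 to 2.22 CPM in sham and 95.1% of 4.92 to 7.89 CPM in HP-AKI.

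The 6 members with too few reads to be tested were Slc5a4a, Slc5a4b, Slc5a7, Slc16a8, Slc17a6 and Slc17a7. Slc5a4b, a relative of the glucose cotransporters, had 47 counts over the sham libraries and 25 over the HP-AKI libraries, a ratio of 0.528 (95% exact interval 0.311 to 0.875). Slc16a8 (MCT3) had 19 and 12 counts, a ratio of 0.626 (0.277 to 1.36). Slc17a7, which encodes VGLUT1, had 2 counts in 1 sham library and 27 counts spread over all 6 HP-AKI libraries, a ratio of 13.4 (3.36 to 116). Slc17a6 (VGLUT2) had 0 and 6 counts, the latter in 3 libraries. Slc5a7, the choline carrier of nerve endings, had 0 and 2 counts, and Slc5a4a had 1 and 0. A count of 0 over a group allows up to 3 counts, which is 0.0137 CPM in sham and 0.0136 CPM in HP-AKI. These intervals and limits cover counting error only.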

How the data were processed

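RNA sequencing counts of whole mouse kidney were analysed in 6 sham and 6 HP-AKI libraries at day 1. Per the labels' protocols the library kit was TruSeq RNA v2, and the submitters' processing notes list GRCm38, featureCounts, edgeR and TopHat2 2.1.0 without their roles. The deposited counts are whole reads that the authors assigned to each gene, unscaled. The RPKM values the authors deposited imply a library total 2.97 to 3.47 times the sum of counts and were used for this check only. The listed gene length is the authors' own. For Slc20a2, Slc16a7 and Slc13a5 it was 3649, 3890 and 3544 bases, where GENCODE exons cover 6216, 11839 and 4940 bases. Levels and ratios per kilobase of these genes would be lower or higher with the other length, while changes between the groups would not move. Whether counting used strand is not given in the sources used here, so reads of exons shared with an opposite-strand gene cannot be told apart.

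The test was edgeR 4.0.16 (R 4.3.3, limma 3.58.1) with filterByExpr, TMM factors and the quasi-likelihood F-test, two-sided, with Benjamini-Hochberg adjustment over 17470 genes. The SE is the log2 fold change divided by the square root of F. CPM values use the TMM-scaled totals, and levels per kilobase divide by the listed length. The median SE was 0.141, at a common biological coefficient of variation of 0.178. Ratios within a library used counts plus 0.5 in scipy 1.17.1. Alternatives were RLE, upper-quartile and no scaling factors, no filter, at least 1 CPM in 6 samples, DESeq2 1.42.0, limma-voom and leaving out libraries. On simulated data, the same steps called 32.8%, 100% and 100% of genes with true log2 changes of 0.5, 1 and 2 among 17572 tested. The simulation gave every gene the common coefficient of variation. It changed only 67, 67 and 66 genes at these sizes, drawn from genes above a minimum mean count, and the shares were not split by level. These shares therefore do not carry over to scarce members or to those with more spread. Tables and figures used matplotlib 3.10.9, numpy 2.4.6 and pandas 2.3.3 in Python 3.11.15.

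The rule for full values took the called members with the largest rise and fall and the most abundant member of each role list, and called members with at least an 8-fold change. Outside it, Slc5a1, Slc5a10, Slc13a2, Slc16a3, Slc16a6, Slc17a4 and Slc20a2 were also given in full or nearly so, chosen after their values were seen. 1 member that enters the counts is not reported here by name. The members and lists were chosen with earlier results of these data known. Slc2a2, Slc2a1, Slc34a1, Slc22a12, Pdzk1, Bsg, Pdk4, Pkm, Kap and the neuron, fat and adrenal markers were named after their values were seen. Exon overlaps and GC content came from GENCODE vM21. Of the entries in the gene lists, Slc9a3r4 and Slc23a4 matched no symbol, and Adgre1 was matched by identifier.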

Additional observations from a re-analysis of the deposited data

Results flagged for a closer look

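Among 78 groups of 6 libraries, each 1 of 39 tested transporter genes in 1 condition, 6 held a library that stood far above its neighbours by Dixon's criterion at the 95% level, where chance alone gives about 1 in 20. The tested member that is not reported by name is left out of this tally. HP-AKI 12 accounted for 3 of the 6. It measured 24.2 CPM for Slc16a13 against 9.7 to 12.3 in the other HP-AKI libraries, 4.83 CPM for Slc17a4 against 1.44 to 1.89, and 56.2 CPM for Slc17a5 against 38.4 to 43.4. HP-AKI 12 also had the highest summed level of proximal tubule markers of its group, at 34016 CPM, and also without Kap, which holds most of that sum, at 8060 CPM, and the part of this in the 3 values was not tested. HP-AKI 8 measured 175 CPM for Slc5a12 against 78.1 to 95. Sham 2 measured 1207 CPM for Slc17a3 against 868 to 973, and sham 4 measured 10.7 CPM for Slc23a3 against 6.58 to 7.64.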

How the results depend on the processing

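Over 20 alternatives, 35 of the 37 called members kept their call and direction wherever a value was given. Slc5a3 (log2 fold change 0.28 to 0.52 over the alternatives) lost its call with upper-quartile factors (0.35) and without each of 5 single libraries, and Slc16a3 (0.73 to 1.35) lost it without sham 1, sham 2 and HP-AKI 8. Slc5a10 (-0.52 to -0.29) passed in 7 alternatives, among them DESeq2 (-0.43), no filter (-0.45) and upper-quartile factors (-0.46), and Slc17a2 (-0.43 to -0.22) passed in 1. The count of higher members was 8 to 11 and of lower members 26 to 28. Leaving out 1 library at a time, the change in the log2 ratio of Slc5a1 to Slc5a2 was 0.37 to 0.57 and that of Slc5a8 to Slc5a12 was -0.10 to 0.15, negative in 5 of these, and the cause was not tested. Without scaling factors the median over all 17470 genes was a log2 fold change of 0.16 instead of 0.04, with 7479 higher and 5421 lower against 6579 and 6141, and no tested member changed sign. Without the filter on low counts, Slc17a7 also passed (log2 fold change 3.32, adjusted p = 0.00292). No paired analysis was possible because the groups share no sample numbers. Depth limits the 6 untested members and those under 1 CPM, such as Slc5a5 and Slc16a3.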
